A study of Musca domestica with 6 samples.

Results

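Larval storage proteins are described here through 3 genes of the housefly, Musca domestica, taken by their gene names from a table of 14227 genes. They are LOC101893407, annotated as larval serum protein 1 beta chain-like, LOC101888755, annotated as arylphorin subunit C223-like, and LOC101888507, annotated as a partial fat-body protein 1-like gene. RNA was sequenced from whole larvae of the second instar (instar 2), collected 24 h after injection of double-stranded RNA. The injected RNA matched either the chitinase gene MdCht9 (dsMdCht9, 3 libraries) or GFP, a fluorescent protein gene that houseflies lack (dsGFP, 3 libraries). All 6 libraries therefore came from injected larvae, and the labels give no strain and no uninjected control. They give 3 per group at injection without saying whether that counts larvae or pools, so p-values measure the spread between these libraries, which may be technical. No annotation used here names MdCht9, so the knockdown is not checked.

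Larval storage proteins, or hexamerins, belong to the same protein superfamily as the copper-binding hemocyanins of other arthropods and the phenoloxidases of insects, but bind no copper. The fat body, the insect counterpart of liver and adipose tissue, secretes them into the haemolymph in large amounts during larval growth. They are later taken back up and serve as a store of amino acids for building the adult. Arylphorins are the hexamerins rich in aromatic residues, and in Drosophila the larval serum proteins 1 and 2 hold the same place. Fat-body protein 1 of Drosophila is itself a hexamerin relative, is induced by the moulting hormone ecdysone and acts as the receptor through which the fat body takes storage proteins back.

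The 3 genes were chosen by name with their levels in these 6 libraries already known, both by injected RNA and by replicate number, so their levels are given as a description with no test. Among the values known was the authors' deposited table, which marks LOC101893407 as significant at a log2 fold change of -1.42, with an unadjusted p of 0.0260 and an adjusted p of 1.00. That table gives LOC101888755 a log2 fold change of -0.71 with no mark, and LOC101888507 a log2 fold change of -0.51 with no p-value at all. Levels below are CPM, reads of a gene scaled to a common library size by the trimmed mean of M-values (TMM). Log2 fold changes are dsMdCht9 minus dsGFP from edgeR. Their standard error was derived as the absolute log2 fold change over the square root of the F statistic of edgeR's quasi-likelihood fit.

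Total counts lay between 12876941 and 15439421 reads per library, and 10644 genes passed the filter on low counts, all 3 storage protein genes among them. Both libraries numbered 3 stood apart from the others. On the first principal component, which held 49.3% of the variance of log2 CPM, they lay at 48.2 (dsMdCht9) and 40.2 (dsGFP), against -33.5 to -3.04 for the other libraries. The results for the 3 genes, and the median of the hexamerin list, are therefore also given by replicate number and without both libraries numbered 3. The number is a label of the samples, and no label says that it marks a shared batch, day or pool.

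As measured per library, the 3 genes followed 3 different patterns. The fat-body protein 1-like gene was far higher in both libraries numbered 3, whichever RNA had been injected. The larval serum protein 1-like gene was lower in those libraries, and also lower in dsMdCht9 than in dsGFP within each number. The arylphorin gene varied least and followed neither the number nor the injected RNA throughout. In whole larvae, fewer fat body cells and less RNA per cell cannot be told apart.

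**Figure D1:**
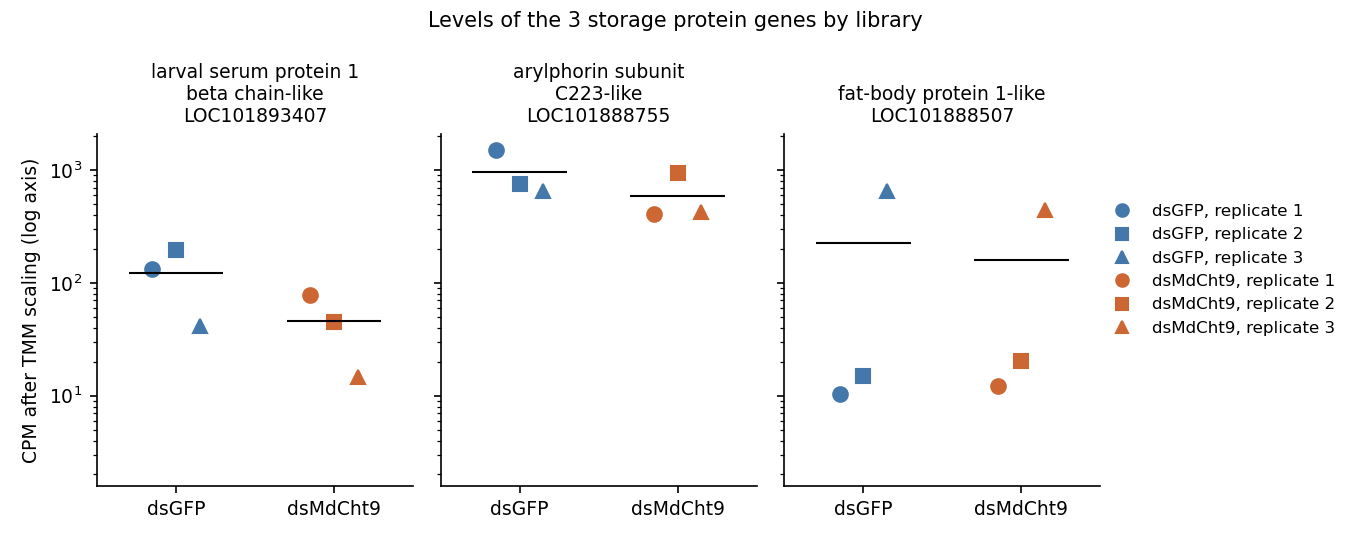
Level of each of the 3 storage protein genes (CPM after TMM scaling, log axis) in each library, with colour for the injected RNA, marker shape for the replicate number and a line at the mean of each group of 3. LOC101888507 sits at 448 and 654 CPM in the triangles (replicate 3) and between 10.5 and 20.3 CPM elsewhere, while LOC101893407 is lowest in the triangle of each group.

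LOC101893407 lies on scaffold NW_004764589.1 of the deposited table, at positions 177093 to 179617 on the minus strand, and its closest UniProt entry there is larval serum protein 1 gamma chain. It had 1260, 582 and 197 reads in dsMdCht9 replicates 1, 2 and 3, or 78.9, 45.3 and 14.5 CPM. In dsGFP replicates 1, 2 and 3 it had 1838, 2866 and 660 reads, or 133, 195 and 41.7 CPM. The lowest library of each group was replicate 3, and the groups overlapped, since dsGFP replicate 3 lay below dsMdCht9 replicates 1 and 2. The group means were 46.3 ± 32.2 CPM in dsMdCht9 and 123 ± 77.2 CPM in dsGFP (SD, n = 3), a log2 fold change of -1.41 ± 0.73.

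Within replicate numbers 1, 2 and 3 the difference in log2 CPM between dsMdCht9 and dsGFP was -0.75, -2.10 and -1.51, so the dsMdCht9 library was the lower of each pair. Without both libraries numbered 3 the log2 fold change was -1.39, close to its value with them, and without dsGFP replicate 2 alone it was -0.91. With the replicate number as a block it was -1.46 ± 0.28, with a smaller standard error than without the block. The gene was chosen with these values known, and the pairing by number rests on the same data. The smaller standard error is therefore a description and no test. Replicate 3 was at 0.234 times the mean of replicates 1 and 2 in dsMdCht9 and at 0.255 times in dsGFP. These are near-equal folds in groups that received different RNA. From the highest library, dsGFP replicate 2, to the lowest, dsMdCht9 replicate 3, the level fell 13.5-fold, and the closest neighbours in that order were dsMdCht9 replicate 2 and dsGFP replicate 3, 1.09-fold apart.

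LOC101888755 lies on scaffold NW_004764612.1 at positions 507521 to 511799 on the plus strand, in a row of 7 arylphorin genes, and its closest UniProt entry is arylphorin subunit C223. It had 6516, 12076 and 5841 reads in dsMdCht9 replicates 1, 2 and 3, or 408, 941 and 431 CPM. In dsGFP it had 21018, 10991 and 10283 reads, or 1515, 749 and 650.4 CPM. One library stood out at the top, dsGFP replicate 1, at 1.61 times the next highest, and dsMdCht9 replicates 1 and 3 were lowest, within 1.06-fold of each other. The groups overlapped through dsMdCht9 replicate 2, the second highest of the 6.

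The group means of LOC101888755 were 593 ± 301 CPM in dsMdCht9 and 972 ± 473 CPM in dsGFP (SD, n = 3), a log2 fold change of -0.71 ± 0.45. Within numbers 1, 2 and 3 the difference was -1.89, 0.33 and -0.59, so the direction was not the same in all pairs. Leaving out dsGFP replicate 1 brought the log2 fold change to -0.24, leaving out dsMdCht9 replicate 2 brought it to -1.21, and without both libraries numbered 3 it was -0.73. Replicate 3 was at 0.639 times the mean of replicates 1 and 2 in dsMdCht9 and at 0.574 times in dsGFP, but in dsMdCht9 it was slightly above replicate 1.

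LOC101888507 is the only gene the table places on scaffold NW_004774515.1, at positions 3929 to 5628 on the minus strand, and its annotation is partial. It had 195, 261 and 6078 reads in dsMdCht9 replicates 1, 2 and 3, or 12.2, 20.3 and 448 CPM. In dsGFP it had 145, 219 and 10336 reads, or 10.5, 14.9 and 654 CPM. The libraries fell into a pair at the top, both numbered 3, and 4 at the bottom, with a 22.0-fold step between them. Replicate 3 was 27.5-fold above the mean of the other replicates in dsMdCht9 and 51.5-fold above it in dsGFP.

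Against that step the difference by injected RNA was small. The group means were 160.2 ± 249 CPM in dsMdCht9 and 226 ± 370.1 CPM in dsGFP (SD, n = 3), with an SD above the mean in each group, and the log2 fold change was -0.50 ± 1.89. Within numbers 1, 2 and 3 it was 0.22, 0.44 and -0.54. With the replicate number as a block the log2 fold change was 0.020 ± 0.22, and without both libraries numbered 3 it was 0.36. Leaving out a single library numbered 3 moved it to -3.80 (without dsMdCht9 replicate 3) or 3.65 (without dsGFP replicate 3), so its sign depended on which was kept.

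Over all tested genes, the mean log2 CPM of the libraries numbered 3 lay above that of the others by more than 1 in 407 genes, 3.82% of those tested, and below by more than 1 in 484 genes, 4.55%. LOC101888507, with a difference of 5.26, was in the 3rd place from the top among 10644 genes. LOC101893407, with -1.99, was in place 109 from the bottom, and LOC101888755, with -0.62, in place 1104. The median over all tested genes was 0.024. By injected RNA, LOC101893407 was in place 54 from the most negative log2 fold change, LOC101888755 in place 390 and LOC101888507 in place 787.

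**Figure D2:**
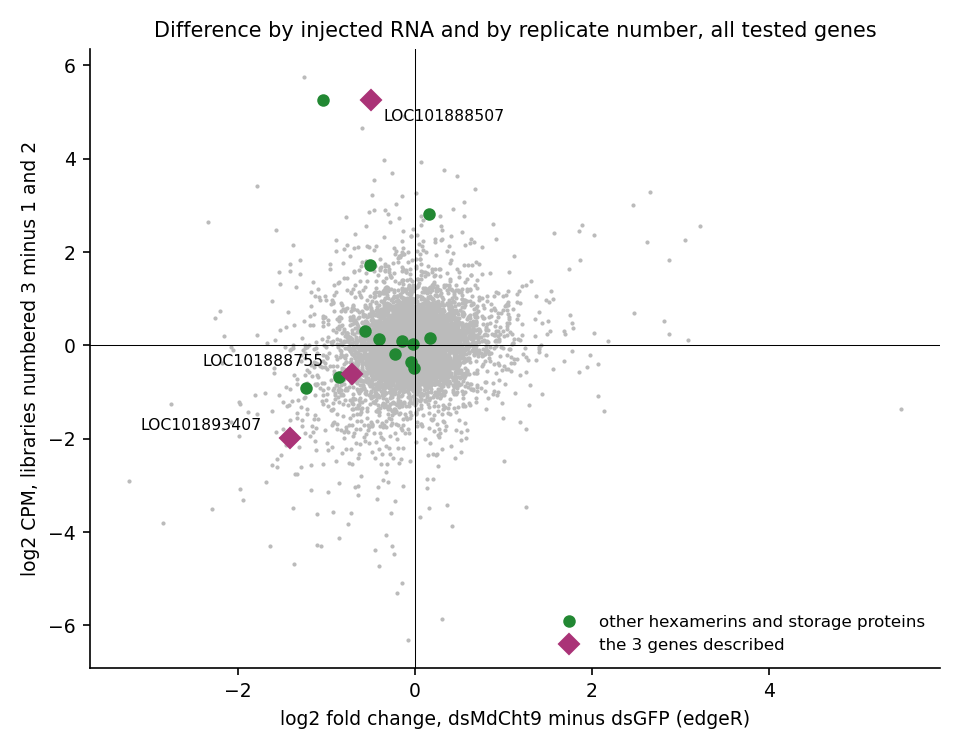
Each grey point is a tested gene, with its log2 fold change between the groups on the x axis and its log2 difference between the libraries numbered 3 and those numbered 1 and 2 on the y axis; green circles are the other hexamerins and purple diamonds the 3 genes described. LOC101888507 lies near the top at 5.26 beside another fat-body protein 1-like gene, and LOC101893407 lies low and to the left at -1.99 and -1.41.

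Levels of different genes can be compared only per length, and the deposited table gives no transcript length, only the span of each gene with its introns. Per kilobase of span, the mean level over the 6 libraries was 183 CPM for LOC101888755, 114 CPM for LOC101888507 and 33.6 CPM for LOC101893407. The value of LOC101888507 came almost wholly from the libraries numbered 3, and its annotation is partial.

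The 3 genes belong to a list of 17 genes described as hexamerins or storage proteins. It holds 10 arylphorins, 2 larval serum protein 1 genes, 2 larval serum protein 2 genes and 3 fat-body protein 1 genes, and 16 of the 17 were tested. Together the 17 took 9.77% of all counts in dsMdCht9 replicate 1 and between 12.4% and 14.2% in the other 5 libraries. The arylphorins made up most of this. The 5 that averaged above 10000 CPM had the highest CPM of the whole table, with no allowance for gene length, and held 85.1% to 91.5% of the summed CPM of the tested hexamerins in a library.

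**Figure D3:**
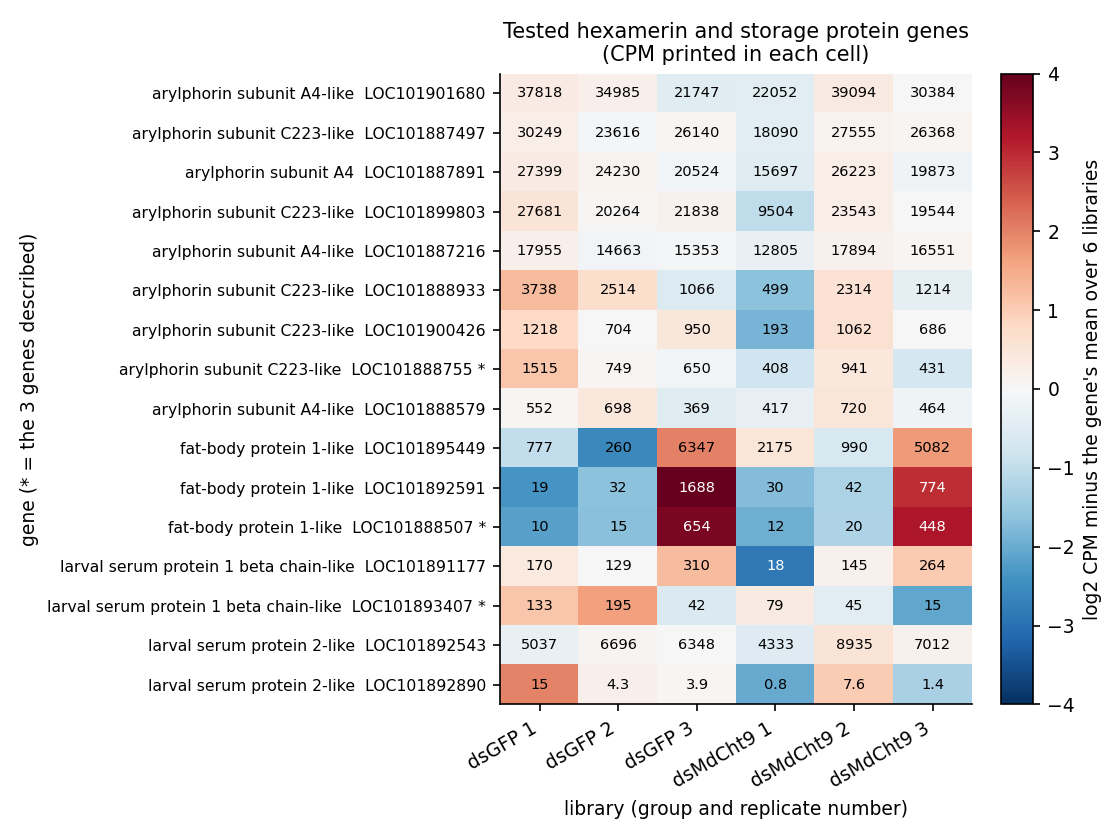
Log2 CPM of each of the 16 tested hexamerin and storage protein genes minus that gene's mean over the 6 libraries (colour), with the CPM printed in each cell; columns are libraries. LOC101887216 has the most even row of the 5 arylphorins above 10000 CPM and LOC101899803 the least even, the fat-body protein 1-like genes are red in both libraries numbered 3, and dsMdCht9 replicate 1 is the bluest column for the larval serum protein 1 gene LOC101891177, at 17.6 CPM.

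Of these 5 abundant arylphorins, 4 ranged less than 2-fold over the 6 libraries. LOC101887216 (subunit A4-like) was at 12805, 17894 and 16551 CPM in dsMdCht9 replicates 1, 2 and 3 and at 17955, 14663 and 15353 CPM in dsGFP, a 1.40-fold range. LOC101899803 (subunit C223-like), the most variable of the 5, ranged 2.91-fold, from 9504 CPM in dsMdCht9 replicate 1 to 27681 CPM in dsGFP replicate 1. LOC101901680 (A4-like), LOC101887497 (C223-like) and LOC101887891 (A4) ranged 1.80-fold, 1.67-fold and 1.75-fold. The log2 fold changes of LOC101901680, LOC101887216, LOC101887891, LOC101887497 and LOC101899803 were -0.05 ± 0.30, -0.02 ± 0.20, -0.22 ± 0.24, -0.15 ± 0.23 and -0.41 ± 0.34.

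Among the less abundant arylphorins, LOC101888755 varied less than LOC101888933 and LOC101900426 and more than LOC101888579. LOC101888933 (C223-like) was at 499, 2314 and 1214 CPM in dsMdCht9 and at 3738, 2514 and 1066 CPM in dsGFP. LOC101900426 (C223-like) was at 193, 1062 and 686 CPM in dsMdCht9 and at 1218, 704 and 950.0 CPM in dsGFP. Both were lowest in dsMdCht9 replicate 1 and highest in dsGFP replicate 1, the pattern LOC101888755 also showed. LOC101888579 (A4-like) ranged 1.95-fold, less than the abundant LOC101899803, from 369 CPM in dsGFP replicate 3 to 720.4 CPM in dsMdCht9 replicate 2. LOC101900602 (A4-like) had 1, 4 and 1 reads in dsMdCht9 and 5, 2 and 8 in dsGFP, and did not pass the filter.

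LOC101888755 took between 0.373% and 1.02% of the arylphorin reads of a library. Its neighbours on the scaffold had far higher CPM: LOC101887891 ends 224 bases before it, and LOC101887497 starts 7404 bases after it. LOC101887891 was at 20598 ± 5301 CPM in dsMdCht9 and 24051 ± 3441 CPM in dsGFP (SD, n = 3), and LOC101887497 at 24004 ± 5156 and 26668 ± 3348. How reads that fit several genes were counted is not given in the sources used here, so the counts of LOC101888755 are uncertain where it resembles these genes. The nearest genes to LOC101893407, on the same scaffold, were no hexamerins: LOC101890817 (protein kinase DC2) averaged 45.7 and 45.1 CPM in dsMdCht9 and dsGFP, and LOC101891215 (a BRSK1 kinase) did not pass the filter.

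The other larval serum protein 1 gene, LOC101891177, did not follow LOC101893407. It was at 17.6, 145 and 264 CPM in dsMdCht9 replicates 1, 2 and 3 and at 169.6, 129 and 310.1 CPM in dsGFP. It was highest in replicate 3 of each group, where LOC101893407 was lowest. The ratio of their reads, LOC101893407 over LOC101891177, was 4.48, 0.312 and 0.0550 in dsMdCht9 and 0.781, 1.51 and 0.135 in dsGFP, lowest in replicate 3 of both groups. The log2 fold change of LOC101891177 was -0.51 ± 0.85, and 0.0066 without dsMdCht9 replicate 1.

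Larval serum protein 2, a further storage hexamerin of flies, had a single abundant gene. LOC101892543 was at 4333, 8935 and 7012 CPM in dsMdCht9 and at 5037, 6696 and 6348 CPM in dsGFP. Its log2 fold change was 0.17 ± 0.29. Its 2.06-fold range was narrow beside that of the second gene of that name, LOC101892890. That gene was at 0.814, 7.64 and 1.40 CPM in dsMdCht9 and at 14.8, 4.29 and 3.92 CPM in dsGFP, and its log2 fold change was -1.23 ± 0.93.

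All 3 fat-body protein 1-like genes were highest in the libraries numbered 3. LOC101895449, that of highest CPM, was at 2175, 990 and 5082 CPM in dsMdCht9 replicates 1, 2 and 3 and at 777, 260 and 6347 CPM in dsGFP. LOC101892591 was at 30.1, 41.8 and 774 CPM in dsMdCht9 and at 19.4, 31.9 and 1688 CPM in dsGFP. Replicate 3 was thus above the mean of the other replicates by 3.21-fold and 12.2-fold for LOC101895449, and by 21.5-fold and 65.8-fold for LOC101892591, in dsMdCht9 and dsGFP respectively. LOC101895449 also differed among the remaining libraries, by more than LOC101888507 did, since it was higher in dsMdCht9 replicates 1 and 2 than in the dsGFP libraries of the same numbers, by 1.48 and 1.93 on the log2 scale.

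LOC101892591 and LOC101888507 moved almost in step. The reads of LOC101888507 were between 0.387 and 0.579 times those of LOC101892591 in every library, while their levels ranged 87.0-fold and 62.5-fold. Both lie on the minus strand from position 3929 of short scaffolds, NW_004774152.1 and NW_004774515.1. Whether reads were shared between them was not tested, so they may not be separate measurements. The RefSeq gene table of assembly GCF_030504385.1 names 15 of the 17 genes of the list, and LOC101888507 and LOC101895449 are not matched in it by symbol.

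None of the 13 other tested hexamerins passed edgeR's quasi-likelihood test at a Benjamini-Hochberg adjusted p under 0.05, where the background over all genes was 0% (0 genes). At an unadjusted p under 0.05 there were 0 of the 13, against 381 genes or 3.58% of all tested. DESeq2 called 14 genes of the whole table, 0.132%, and 88 with the replicate block, 0.827%, and limma-voom called 0, and none of the 13 was among any of these. Of these 13 genes 11 had a log2 fold change below 0 and 2 above, where 50.5% of all tested genes lay below 0. Their median was -0.22, and that of all tested genes -0.0033. The groups did not overlap in 0 of the 13, against 8.21% of all tested genes.

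The lower levels in dsMdCht9 came mainly from replicate 1. Within number 1, 13 of the 16 tested hexamerins were lower in dsMdCht9, with a median difference of -0.76, where 50.3% of all tested genes were lower. The 16 include the 3 genes chosen with their values known, and the median log2 fold change of the other 13 was -0.22. Within number 2, 2 of the 16 were lower and the median was 0.25, and within number 3, 10 were lower and the median was -0.20. The median log2 fold change of the 16 was -0.45, and -0.028 without dsMdCht9 replicate 1, -0.26 without dsGFP replicate 1, -0.24 without dsGFP replicate 3, -0.21 with the replicate block and with limma-voom, and -0.26 without both libraries numbered 3. Within number 1 the 3 fat-body protein 1-like genes went the other way: LOC101895449, LOC101892591 and LOC101888507 were above 0 (1.48, 0.63 and 0.22). Within number 3 they were below 0 (-0.32, -1.12 and -0.54), as were most of the 16. LOC101893407 was lower within number 1 too, but that difference was the smallest of its 3. It was also 1 of the 2 hexamerins lower in dsMdCht9 within number 2, together with LOC101888933.

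**Figure D4:**
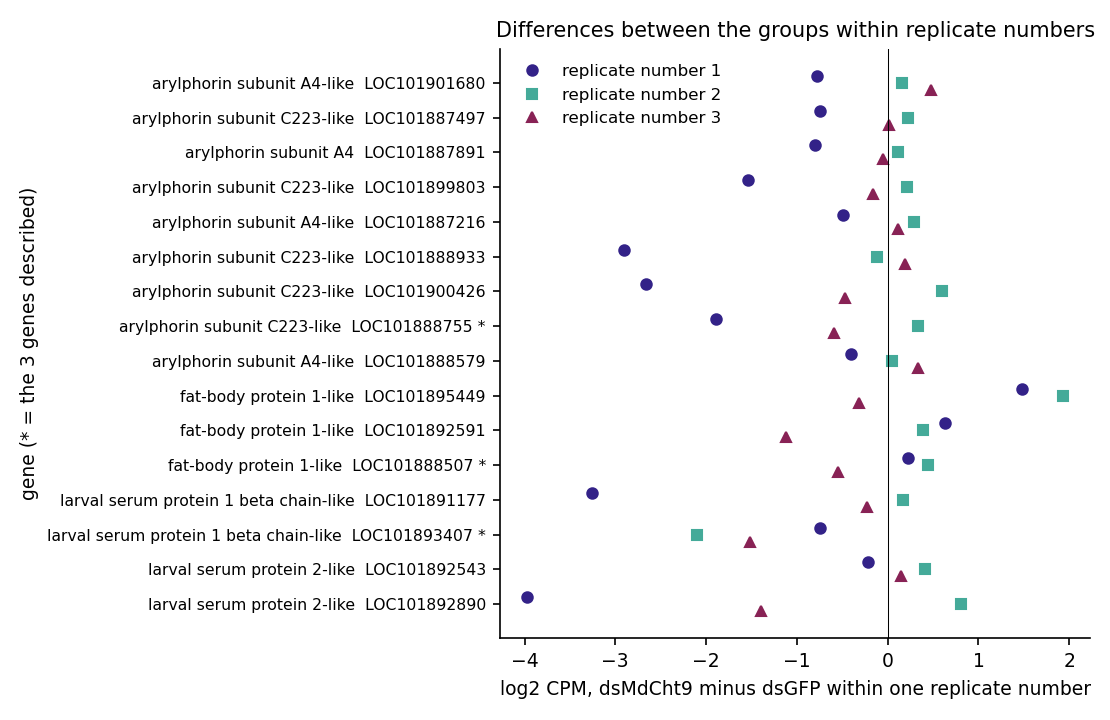
Difference in log2 CPM between the dsMdCht9 and the dsGFP library that share a replicate number, for each tested hexamerin; each marker is 1 pair of libraries. Most circles (number 1) lie left of 0 and most squares (number 2) right of it, while all 3 markers of LOC101893407 lie left, between -2.10 and -0.75.

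Each of the 3 genes was also compared with all other tested genes of informative description and a mean of at least 10 CPM (5384 genes) by the Pearson correlation of log2 CPM over the 6 libraries. These correlations are descriptions over 6 libraries that share the split by number, and are scale-free, so a gene with small changes can match one with large changes. The closest to LOC101893407 were LOC101889798 (EH domain-containing protein 3, r = 0.982), LOC101895555 (glutathione S-transferase 1-like, r = 0.977) and LOC101900548 (helicase ARIP4, r = 0.974). LOC101895555, related to enzymes that conjugate glutathione to foreign compounds, was at 80.3, 58.8 and 27.9 CPM in dsMdCht9 and at 109, 107 and 44.5 CPM in dsGFP.

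The closest to LOC101888755 were LOC101888116 (calexcitin-2-like, r = 0.997), LOC101891106 (alanine aminotransferase 1, r = 0.994) and LOC101891831 (lysosomal aspartic protease-like, r = 0.992). LOC101891106, whose enzyme moves amino groups between alanine and glutamate, was at 259, 354 and 260.1 CPM in dsMdCht9 and at 393, 317 and 302 CPM in dsGFP. LOC101891831 was at 439.7, 700.1 and 414 CPM in dsMdCht9 and at 949, 576 and 545 CPM in dsGFP, with dsGFP replicate 1 highest and dsMdCht9 replicate 2 second, as for LOC101888755.

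The closest to LOC101888507 were LOC101893985 (muskelin, r = 0.999), LOC101892591, with which it may share reads (r = 0.997) and LOC101889364 (esterase-5B-like, r = 0.996). LOC101893985 was at 48.0, 52.4 and 96.9 CPM in dsMdCht9 and at 48.6, 50.1 and 106 CPM in dsGFP, a much smaller step in the same libraries. The 3 storage protein genes were not alike among themselves. Their correlations were 0.51 between LOC101893407 and LOC101888755, -0.77 between LOC101893407 and LOC101888507, and -0.44 between LOC101888755 and LOC101888507. The genes of highest mean correlation with all 3 were LOC101894178 (protein phosphatase methylesterase 1), LOC101889767 (UDP-sugar transporter UST74c), LOC101895698 (acyl-CoA-binding protein homolog), LOC101888182 (peritrophin-48) and LOC101891088 (small integral membrane protein 14), at no more than 0.418.

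Some genes described by ecdysone pathway terms were among those that differed by number, and others were not. In Drosophila, ecdysone acts through a receptor formed by the ecdysone receptor and ultraspiracle and switches on early regulators such as broad. Of 26 genes so described 19 were tested, and 7 were above the other libraries by more than 1 on the log2 scale in those numbered 3, against the 3.82% of all tested genes given above. LOC101888839 (ecdysone receptor) was at 41.1, 48.0 and 109 CPM in dsMdCht9 replicates 1, 2 and 3 and at 43.8, 45.4 and 90.4 CPM in dsGFP. LOC101892866 (broad-complex core protein isoform 6-like) was at 43.3, 43.7 and 154 CPM in dsMdCht9 and at 73.6, 62.6 and 156 CPM in dsGFP. In both, replicate 3 lay above all 4 other libraries, as it did for LOC101888507.

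The other genes of these 7 were LOC101893225 (20-hydroxyecdysone protein), LOC101892525 (broad-complex core protein isoform 6-like), LOC101895726 (the nuclear receptor Eip78C), LOC105262291 (ecdysone receptor-like) and LOC101896979 (ecdysone 20-monooxygenase, the enzyme that makes the active hormone). LOC101896979 differed by only 0.63 within dsMdCht9, against 1.46 within dsGFP, and LOC105262291 by 1.35 within dsMdCht9 and 0.97 within dsGFP. LOC101893225 was low throughout, from 0.156 CPM in dsMdCht9 replicate 2 to 7.97 CPM in dsGFP replicate 3. All 7 were named after their values were seen. LOC101898949 (probable nuclear hormone receptor HR38) lay the other way, by -1.29. LOC101887949 (ultraspiracle) differed by 0.42. Other ecdysone-related regulators also stayed within 1. Another broad-complex gene, LOC101896582, differed by 0.77. LOC101894345 (ecdysone-induced protein 74EF) differed by 0.54 and LOC101896320 (ecdysone-induced protein 75B, isoforms C/D) by 0.25. LOC101899172 (FTZ-F1) differed by -0.28 and LOC101888439 (ecdysone-induced protein 75B, isoform B-like) by -0.24. By injected RNA 0 of the 19 were called, as were 0 of all 10644 tested genes. Of the 19, 12 were below 0 and 7 above, with a median log2 fold change of -0.07. The gene of highest CPM in the list was LOC101892708 (zinc finger protein on ecdysone puffs) at 298 ± 19.3 and 312 ± 11.5 CPM, and that of smallest p was LOC101888439 (ecdysone-induced protein 75B, isoform B-like) at 0.643 ± 0.244 and 0.999 ± 0.338 CPM (SD, n = 3).

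Phenoloxidases, which start melanin formation and share the hemocyanin domain with the hexamerins, were described in 6 genes, of which 5 were tested. Of these 5, 0 were called, the same as over all tested genes. In dsMdCht9 2 were lower and 3 higher, and the median log2 fold change was 0.02. That of highest CPM, LOC101891047, was at 649.8 ± 369.6 CPM in dsMdCht9 and 841 ± 125 CPM in dsGFP (SD, n = 3). LOC101900449 had the smallest p of the 5, with 8.01, 2.81 and 2.36 CPM in dsMdCht9 and 9.01, 9.82 and 18.0 CPM in dsGFP, and a log2 fold change of -1.47 ± 0.53. Its groups did not overlap, as in 8.21% of all tested genes, and it was named because of its small p. LOC101895802, picked with its values in view, is an uncharacterized gene with a hemocyanin domain on the scaffold of LOC101895449. It was at 57.2, 37.4 and 149 CPM in dsMdCht9 and at 15.9, 33.2 and 48.6 CPM in dsGFP.

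Other products of the fat body gave no call by injected RNA in edgeR's test, which called 0 of all 10644 tested genes. Over all tested genes 3.58% had an unadjusted p under 0.05 in that test. In these lists and those of phenoloxidases and of moulting factors it was reached by 1 of 5 tested phenoloxidases, LOC101900449. It was also reached by 1 of 10 tested genes of aromatic amino acid breakdown, LOC101888179, and by no other gene of these lists. Of 17 genes for yolk proteins and lipid transport 5 were tested and 0 called, with 4 below 0. LOC101887937 (apolipophorins, the protein part of the haemolymph lipid carrier) was at 5219 ± 1208 CPM in dsMdCht9 and 5312 ± 260.4 CPM in dsGFP, and LOC105261614 (vitellogenin-like) at 106 ± 32.5 and 132 ± 42.1 CPM (SD, n = 3). Of 7 genes for lipid and glycogen stores 0 were called. LOC101889498 (glycogen phosphorylase, which releases glucose from glycogen) was at 771, 1750 and 878 CPM in dsMdCht9 and at 1729, 1678 and 1025 CPM in dsGFP, low in both libraries numbered 3 and in dsMdCht9 replicate 1. No description in the table matched an adipokinetic hormone receptor, so the fat body was represented by its secreted products.

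Of 10 genes for the breakdown of aromatic amino acids, in which arylphorins are rich, 0 were called, the same as over all tested genes. LOC101888256 (henna, phenylalanine hydroxylase) was at 269 ± 61.0 and 271 ± 72.6 CPM in dsMdCht9 and dsGFP, and LOC101888179 (fumarylacetoacetase) at 4.07 ± 1.32 and 7.67 ± 1.59 CPM (SD, n = 3). The groups of LOC101888179, named for the smallest p of its list, did not overlap, as in 8.21% of all tested genes. In 3 of these 10 genes the libraries numbered 3 were lower by more than 1 on the log2 scale, against the 4.55% of all tested genes given above. Of 5 juvenile hormone factors 0 were called. LOC101900320 (juvenile hormone epoxide hydrolase 1, which inactivates the hormone) had both the highest CPM and the smallest p, at 462 ± 39.8 and 390.3 ± 33.6 CPM (SD, n = 3).

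Markers of some other tissues varied with the number and with dsMdCht9 replicate 1. The summed level of 138 cuticle and epidermis genes was 18899, 37357 and 21044 CPM in dsMdCht9 replicates 1, 2 and 3 and 48031, 38989 and 24492 CPM in dsGFP. That of 36 muscle genes was 26182, 45681 and 27633 CPM in dsMdCht9 and 44931, 43107 and 31531 CPM in dsGFP. Both sums were lowest in the libraries numbered 3 and in dsMdCht9 replicate 1, the library in which most hexamerins were low. The same 3 libraries were lowest for gut and haemocyte genes. The sum of 139 gut genes was 14153, 22593 and 13861 CPM in dsMdCht9 and 18855, 19612 and 16660.2 CPM in dsGFP. That of 15 haemocyte genes, phenoloxidases among them, was 1826, 3430.4 and 2214 CPM in dsMdCht9 and 2969.6, 2868 and 2673 CPM in dsGFP. The median log2 difference of the libraries numbered 3 from the others was -0.95 over tested cuticle and epidermis genes. It was -0.32 for muscle, -0.26 for gut and -0.024 for haemocyte genes, so the haemocyte list as a whole did not shift with the number. The sums of 29 neuron genes ranged from 515 to 874 and from 495 to 895 CPM, and those of 17 genes of dividing cells from 335 to 406 and from 308 to 409, highest in both libraries numbered 3 in each list. No marker list had a gene at 0 in all 6 libraries. The part of tissue make-up in the levels of the storage proteins was not tested.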

How the data were processed

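The authors deposited raw read counts per gene for 6 libraries, per the file headers. The submitters' processing notes list the tools HISAT2 2.1.0, StringTie 1.3.2d and HTSeq 0.6.0 but not what each was used for. No source used here gives the genome build, the use of strand or the handling of reads that fit several genes. From these counts the authors' deposited table also derives a mean normalized signal, a ratio of the group means with its log2 value, and a p-value with its adjustment.

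Counts were filtered with filterByExpr and scaled by TMM in edgeR 4.0.16 (R 4.3.3). The test was the quasi-likelihood F-test with group as the only term, two-sided, adjusted by Benjamini-Hochberg over 10644 genes at 0.05. Log2 CPM used a prior count of 2. The alternatives were other scalings and filters, DESeq2 1.42.0, limma-voom (limma 3.58.1), libraries left out and the replicate block. The fits were tested on simulated data with as many genes changed 4-fold as 2-fold. There edgeR called 84 of the genes changed 4-fold but only 11 of those changed 2-fold, so a gene that was not called may still differ. DESeq2 called 90 and 24 of them, but also 47 unchanged genes, against 8 for edgeR.

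The deviations of same-numbered libraries from their group means correlated at 0.24, 0.39 and 0.65 for numbers 1, 2 and 3, so the numbers were taken to pair the libraries. This rests on the data, and no label states it. For numbers 1 and 2 it is weak. There dsGFP replicate 1 correlated more with dsMdCht9 replicate 2 (0.32) than with its own number, while dsGFP replicate 2 correlated at 0.08 with dsMdCht9 replicate 1. Deviations from a group mean cancel out within the group. The shift shared by the libraries numbered 3 therefore pulls the correlations among numbers 1 and 2 upward by itself. The genes and lists were chosen with earlier results of these data known. Genes were named by a rule: the 3 genes, all genes of the hexamerin list, of each other list that of highest CPM and that of smallest p, the nearest neighbours, and the genes most correlated with the 3. Genes outside the rule are LOC101895802 and the ecdysone pathway genes given by replicate number, LOC101898949 and LOC101887949 among them, which were chosen after their values were seen. Descriptions in the table assigned genes to lists.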

Additional observations from a re-analysis of the deposited data

How the results depend on the processing

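The log2 fold change of LOC101893407 stayed below 0 under all 15 alternatives, between -2.04 and -0.91, and that of LOC101888755 between -1.21 and -0.24. Leaving out 1 library gave -2.04 to -0.91, -1.21 to -0.24 and, for LOC101888507, -3.80 to 3.65. The differences of libraries numbered 3 from the others kept their direction under all 9 alternatives run, at -2.36 to -1.66 for LOC101893407, -0.95 to -0.32 for LOC101888755 and 4.82 to 5.69 for LOC101888507, whose values were 4.82 within dsMdCht9 alone and 5.69 within dsGFP alone. With the replicate block edgeR called 0 genes, as without it. DESeq2 called 14 genes, 0.132% of those tested, and, with the replicate block, 88, or 0.827%. The latter included 1 gene of aromatic amino acid breakdown, LOC101888071, with an edgeR adjusted p-value under the same block of 0.472. They also included LOC101893407, but that gene was chosen with its levels in these libraries known, so its call is no test of it. The block changed no call of edgeR. The median of the yolk and lipid transport list was 0.10 without a filter against -0.18 with it, and lay between -0.27 and 0.018 with 1 library left out. Scaling by library size without TMM put the median over all tested genes at 0.12 instead of -0.0033. Leaving out a library numbered 3 gives no difference by number within its group and was not run for it. For all of these shifts the cause was not tested.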
